A study of Homo sapiens with 2 samples.

Results

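Genes of the machinery that makes, splices and processes messenger RNA were examined in MDA-MB-231, a human triple-negative breast cancer cell line. Members were chosen by symbol alone: RNA polymerase subunits (POLR), TAF proteins, general transcription factors (GTF2, GTF3), Mediator subunits (MED), proteins of small nuclear ribonucleoproteins (SNRP, SNRNP, LSM), splicing factors (SF3, PRPF, SRSF), RNA-binding proteins (HNRNP, RBM), DDX and DHX helicases, 3' end processing factors (CPSF, CSTF) and exosome subunits (EXOSC), leaving out DDX58. This gave 22 of the 2046 genes in the table analysed here. The series compared 1 library of wild-type cells (labelled TAMER+/+) with 1 library of knockout cells (TAMER-/-), and its design text names TMEM25, which encodes a transmembrane protein, as the gene knocked out. Both were cultured in DMEM with serum, and whether the knockout is a single clone is not given in the sources used here. Each genotype had 1 library, so the spread between replicates is unknown and nothing was tested.

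All 2046 genes in the table have a knockout value of at least 1 and at least 2 times the wild-type value. Being higher in the knockout library is therefore a condition of being in the table and not a finding about any member, and machinery genes outside it were not analysed here. The direction follows the headers of the expression and count columns, since the deposited log2 columns carry crossed headers in 2046 of 2046 genes. In RNA from bulk cells, a difference in the share of cells of a kind and a difference in RNA per cell cannot be told apart. The members held 42632 knockout and 15996 wild-type reads, the median gene having 910.3 and 317.2. Of 6 luminal breast markers looked for, 2 were in the table, TFF1 (5920 against 0.94) and TFF3 (127.85 against 3.68), a summed value of 6048 in the knockout and 4.62 in the wild-type library. None of the 4 basal or mesenchymal, 3 leukocyte and 3 fibroblast markers was in the table. The part of these marker differences in the values below was not tested.

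Transcription by RNA polymerase II begins when TFIID, a complex of the TATA-binding protein and TAF proteins, settles on a promoter, and TFIIH opens the DNA and Mediator relays signals from bound activators to the polymerase. The transcript is spliced by small nuclear ribonucleoproteins, each built on a ring of Sm or LSm proteins, and is cleaved and polyadenylated at its 3' end. RNA helicases of the DDX and DHX families remodel RNA at each step, and the exosome degrades RNA from the 3' end.

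The members fell into 12 transcription genes, 6 splicing genes, 3 helicases and 1 gene of 3' end processing, CPSF4. No exosome gene was in the table, so decay was represented by no member of its own. Of the 337 protein-coding genes that match the rule in the RefSeq annotation, 22 (6.53%) were in the table, against 2006 of 19319 protein-coding genes with an Entrez number (10.4%). The share was 9.45% for transcription (12 of 127), 5.56% for helicases (3 of 54), 4.76% for 3' end and decay (1 of 21) and 4.44% for splicing (6 of 135). Whole families were missing: 0 of 26 HNRNP genes, 0 of 16 DHX helicases, 0 of 12 SRSF genes, 0 of 12 PRPF genes, 0 of 10 exosome genes and 0 of 4 CSTF genes were in the table. Genes outside it may be silent, lower or alike, which the table does not separate.

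The members lay close to the lower limit of the table, with 1 exception. Of the 22 ratios in the authors' deposited table, 21 lay between 2.03 and 3.21, and the median of the 22 was 2.59, against 3.33 for all listed genes. A deposited ratio of at least 4 was reached by 1 member, the helicase gene DDX43, against 41.2% of all genes in the authors' deposited table. Among the 1350 listed genes with at least 50 wild-type reads, 23.2% had a ratio of at least 4 and the median was 2.75 in the authors' deposited table. The 21 members with that many reads had a median of 2.58, and none reached 4.

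On the log2(value + 1) scale, which lowers the ratio of weakly expressed genes, 19 of 22 members reached 2-fold, where the share over all 2046 genes was 80.6%. The members' share is near that background. A 4-fold difference on this scale was reached by 1 of 22 members and by 21.3% of all genes. Over the members the median log2 ratio came to 1.16, which is 0.16 below the 1.33 of all genes, and 8 members lay above the median of all genes and 14 below it. The transcription group had a median of 1.24 (12 genes), the splicing group 1.195 (6 genes) and the helicases 0.97 (3 genes), while CPSF4 stood at 1.04. With each gene's value set against the median of all genes, these medians were negative, at -0.087, -0.13, -0.36 and -0.29. The groups overlapped widely: transcription genes ran from 0.56 to 1.62 and splicing genes from 1.02 to 1.63.

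Read counts were compared as well. The read-count fold, called fold from here on, is knockout over wild-type counts divided by a scaling factor of 1.155. That factor is the median ratio between libraries of reads per expression unit, and its own error was not included. The 95% interval of the fold is the exact binomial interval of the counts, which covers counting error only. The interval lay above 2 for 17 of 22 members, against 76.5% of all genes, a share near that background. Since 2 is also the lowest deposited ratio in the table, this count is not a finding about any member. The interval held 2 for the other 5 members, namely CPSF4, DDX19B, SNRPG, GTF2H2 and POLR3K. At this scaling the counts of these 5 do not separate the fold from 2. Without the scaling, 21 of 22 intervals lay above 2, so this outcome rests largely on the factor.

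**Figure D1:**
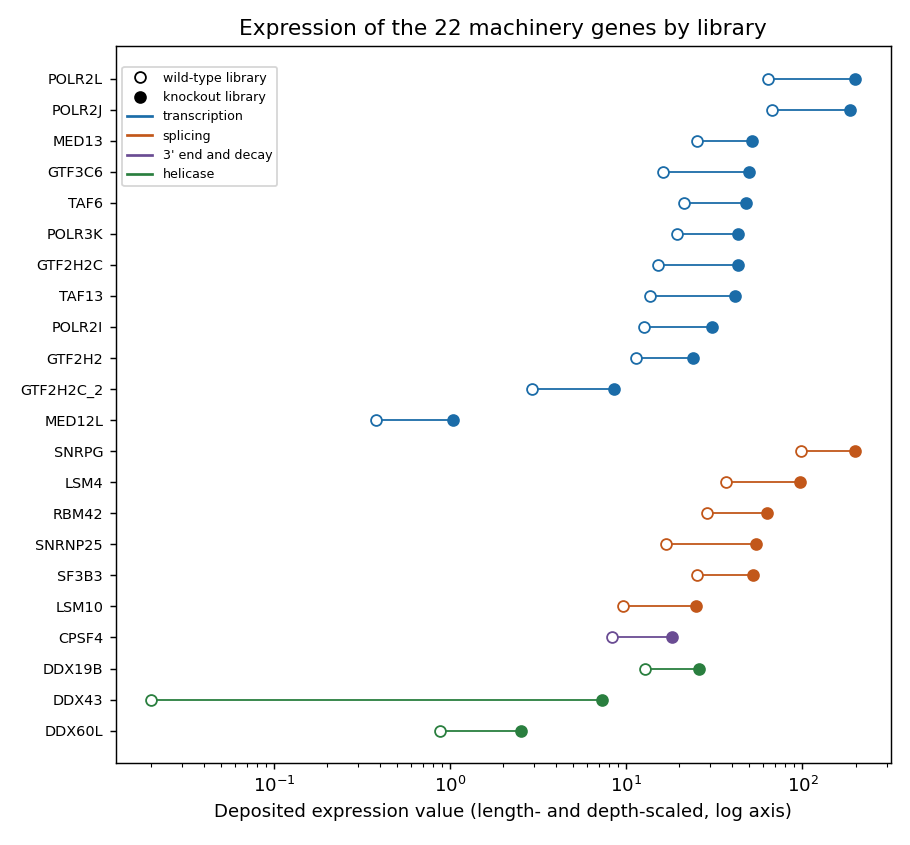
Deposited expression value (x axis, length- and depth-scaled, log axis) of the 22 genes, with an open point for the wild-type library and a filled point for the knockout library, coloured by group. The lines are of similar length for all genes except DDX43, which runs from 0.02 to 7.24.

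**Figure D2:**
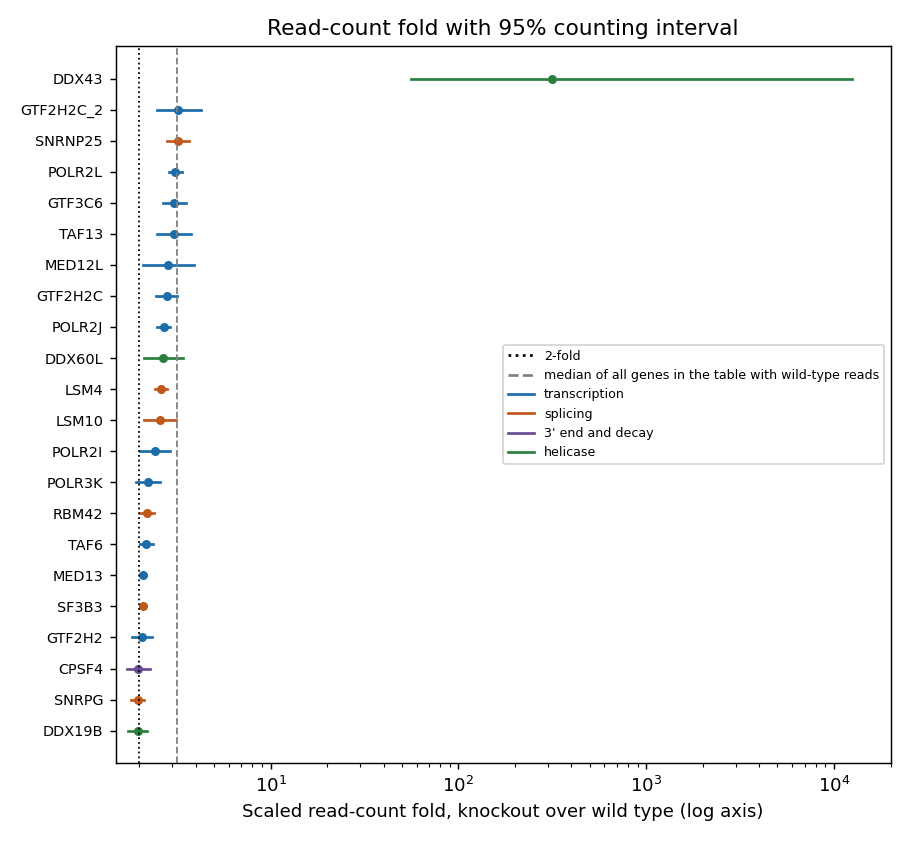
Read-count fold of knockout over wild type (points, log axis) with its 95% counting interval (bars), sorted by fold; the dotted line is 2-fold and the dashed line the median of all listed genes with wild-type reads, 3.17. The 21 genes other than DDX43 lie between 1.96 and 3.22, and 5 intervals reach below 2.

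Subunits of the RNA polymerases gave 4 members, of which 3 belong to RNA polymerase II and all encode small subunits. POLR2L, a subunit of 67 residues shared by the 3 nuclear polymerases, had the highest level of them, going from 63.93 in the wild type to 199.08 in the knockout. Its log2 ratio was 1.62 and its read-count fold 3.12 (2.89 to 3.36), from 3144 and 873.3 reads. Here and below, a pair of values gives the knockout first. POLR2J, a subunit that pairs with POLR2C in the assembling enzyme, was at 187.3 against 66.7 (fold 2.69, interval 2.49 to 2.92). Its coding sequence shares 98.1% of 322 aligned bases with the copy POLR2J2, which was not in the table, so its count depends on how shared reads were divided. POLR2I, a zinc-binding subunit that takes part in transcript proofreading, was lower at 30.58 against 12.64 (fold 2.42, interval 2.03 to 2.90). It overlaps the opposite-strand gene TBCB, also in the table, over 1058 bases, and without strand their shared reads cannot be told apart. POLR3K, the corresponding small subunit of RNA polymerase III, was at 42.94 against 19.27 (fold 2.23, interval 1.92 to 2.59). The interval of POLR2L lay above that of POLR3K, while those of POLR2J and POLR2I overlapped it. POLR2L and POLR3K also overlap opposite-strand genes, CD151 over 2476 bases and SNRNP25 over 619 bases, which the intervals leave out.

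TFIID contributed TAF13 and TAF6. TAF13, a histone-fold subunit of 124 residues on chromosome 1 (109062486 to 109076002, minus strand, GENCODE 29 on GRCh38), went from 13.64 in the wild type to 41.51 in the knockout. It had 422 knockout and 120 wild-type reads and a log2 ratio of 1.54 (fold 3.04, interval 2.48 to 3.76), rank 765 of 2046. TAF6, a subunit of 677 residues whose histone fold pairs with TAF9, was at 47.47 against 21.32 (fold 2.18, interval 2.01 to 2.36). The interval of TAF13 did not overlap that of TAF6, so the difference between them exceeded counting error. The counts of TAF6 are not whole numbers, and its interval leaves out how shared reads were divided. TAF6 also overlaps the opposite-strand genes AP4M1 and CNPY4, not in the table, over 3276 and 229 bases. The bases before the TAF13 start in RefSeq (GRCh38.p14, chr1:109076004-109076253, minus strand) are shown because TAF13 marks the module, with CCGGAAG, the core recognised by ETS factors, in capitals.
TAF13: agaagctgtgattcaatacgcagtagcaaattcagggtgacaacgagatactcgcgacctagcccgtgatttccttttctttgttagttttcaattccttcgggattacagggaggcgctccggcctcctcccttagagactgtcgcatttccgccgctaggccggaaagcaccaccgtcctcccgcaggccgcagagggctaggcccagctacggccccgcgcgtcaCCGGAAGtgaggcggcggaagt
The stretch holds 22 CpG dinucleotides and 1 match to the motif on either strand.

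TFIIH contributed GTF2H2, which encodes its p44 subunit, and the copies GTF2H2C and GTF2H2C_2. GTF2H2C was at 42.94 against 15.17 (fold 2.79, interval 2.47 to 3.16), GTF2H2 at 23.94 against 11.27 (fold 2.07, interval 1.82 to 2.35), and GTF2H2C_2 at 8.47 against 2.93 (fold 3.22, interval 2.48 to 4.26). These 3 values are not independent. The coding sequences of GTF2H2 and GTF2H2C differ at 4 of 1185 bases, and all 3 genes have counts that are not whole numbers, so each value may hold reads of the others. Summed over the copies, the counts were 2195 and 759.5, a fold of 2.50 (2.30 to 2.72). GTF2H2 and GTF2H2C also have nearly identical promoters, shown here upstream of both RefSeq starts (GRCh38.p14) for GTF2H2 (chr5:71067707-71067926, minus strand) and GTF2H2C (chr5:69559971-69560190, plus strand), with the base that differs in capitals.
GTF2H2: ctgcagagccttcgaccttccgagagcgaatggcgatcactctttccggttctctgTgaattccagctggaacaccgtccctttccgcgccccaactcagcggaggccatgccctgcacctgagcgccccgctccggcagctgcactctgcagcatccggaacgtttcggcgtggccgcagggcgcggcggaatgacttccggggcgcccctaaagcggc
GTF2H2C: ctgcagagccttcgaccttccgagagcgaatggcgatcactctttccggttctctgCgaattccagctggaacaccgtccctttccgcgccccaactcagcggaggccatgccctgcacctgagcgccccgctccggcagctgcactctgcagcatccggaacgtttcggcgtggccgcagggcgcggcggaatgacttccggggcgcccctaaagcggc
Over 220 bases they differ at 1, T57C, counted from the 5' end of the printed stretch with the GTF2H2 base first. GTF3C6, a small subunit of TFIIIC, the factor that recruits RNA polymerase III to transfer RNA genes, was at 49.82 against 16.21 (fold 3.07, interval 2.66 to 3.56).

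Mediator contributed 2 subunits of its kinase module, the part that binds and restrains the rest of the complex. MED13, which anchors the module and lies on chromosome 17 (61942605 to 62065282, minus strand, GRCh38), was at 51.38 against 25.08 and had the most reads of any member, 9728 and 4001. Its fold of 2.10 (2.03 to 2.18) is one of the most precisely counted here. MED12L, a paralogue of MED12, was the lowest member of all at 1.03 against 0.38, just above the lower limit of the table (fold 2.84, interval 2.08 to 3.90). Its log2(value + 1) ratio was 0.56, the smallest of the 22, because the added 1 exceeds its wild-type value and nearly equals its knockout value. The other members of Mediator, 28 of 30 in RefSeq, were not in the table.

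The splicing group had 6 members. All 6 reached 2-fold on the log2(value + 1) scale, as did 80.6% of all genes in a table where every gene has a deposited ratio of at least 2. SNRPG, a protein of the Sm ring of the spliceosomal ribonucleoproteins, had the highest value of all members in both libraries, 199.41 against 97.95. Its read-count fold of 1.96 (1.81 to 2.13) was among the 3 smallest. SNRNP25, a protein of the minor spliceosome, which removes a rare class of introns, had the largest fold of the group, 3.22 (2.82 to 3.68), at 54.2 against 16.86. These intervals do not overlap. They belong to the smallest and largest folds of the 6, picked after ranking, and intervals for single genes make no allowance for that choice.

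LSM4, a protein of the ring that binds the end of U6 RNA and, in another ring, takes part in messenger RNA decay, was at 96.18 against 36.87 (fold 2.61, interval 2.43 to 2.80). LSM10, which replaces an Sm protein in the ribonucleoprotein that processes histone messages, was at 24.72 against 9.59 (fold 2.58, interval 2.12 to 3.15). The folds of these LSm proteins differed by less than their counting error, although their levels differed. SF3B3, a large subunit of the SF3b complex that recognises the branch point, was at 52.34 against 25.15 (fold 2.08, interval 2.01 to 2.16) from 9533 and 3963 reads. RBM42, an RNA-binding protein of the spliceosome, was at 62.87 against 28.59 (fold 2.20, interval 2.02 to 2.40). CPSF4, a zinc-finger subunit of the cleavage and polyadenylation complex that reads the poly(A) signal, was the only member in 3' end processing, at 18.1 against 8.29 (fold 1.98, interval 1.72 to 2.27). It overlaps the opposite-strand genes PTCD1 over 18450 bases and ATP5MF over 8897 bases, of which ATP5MF was in the table. Without strand, their shared reads cannot be told apart.

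POLR3K and SNRNP25 lie head to head on chromosome 16, with 219 bases between their RefSeq starts, and their annotated spans in GENCODE 29 overlap over 619 bases on opposite strands. Their folds, 2.23 (1.92 to 2.59) and 3.22 (2.82 to 3.68), had intervals that did not overlap, at levels of 42.94 and 54.2 in the knockout and of 19.27 and 16.86 in the wild type. Without strand, reads in the shared stretch cannot be told apart. The bases between the starts are shown because they are upstream of both genes (GRCh38.p14, chr16:53609-53827, plus strand, read towards SNRNP25), with CCAAT on either strand in capitals, the box bound by NF-Y.
POLR3K-SNRNP25: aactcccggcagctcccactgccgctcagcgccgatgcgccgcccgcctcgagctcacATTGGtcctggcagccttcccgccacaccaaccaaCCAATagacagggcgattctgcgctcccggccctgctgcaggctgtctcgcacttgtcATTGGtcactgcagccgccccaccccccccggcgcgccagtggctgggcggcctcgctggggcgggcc
It holds 3 CCAAT boxes, 1 as printed and 2 on the other strand.

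The helicases showed the widest spread. DDX43, a helicase known chiefly from testis and from tumours, on chromosome 6 (73394748 to 73417569, plus strand, GRCh38), went from 0.02 in the wild type to 7.24 in the knockout, or from 1 read to 362. The fold of 313 had an interval of 55.9 to 12410, so its size is poorly fixed while its lower bound exceeds the upper bound of every other member. It comes from the same libraries whose values put genes in the table. Fewer than 10 wild-type reads were found for 322 of 2046 listed genes (15.7%), and DDX43 is the only member among them. Its log2(value + 1) ratio was 3.01, rank 143 of 2046. DDX19B, an ATPase that releases messenger RNA at the nuclear pore, was at 25.86 against 12.73 (fold 1.96, interval 1.75 to 2.20). Its coding sequence shares 95.3% of bases with the paralogue DDX19A, which was not in the table. DDX60L, a relative of the antiviral helicase DDX60, was at 2.53 against 0.87 (fold 2.68, interval 2.11 to 3.43). Both DDX19B and DDX60L fell short of 2-fold on the log2(value + 1) scale, at 0.97 and 0.92.

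Of the 12 protein-coding neighbours of DDX43 within 1 Mb, 4 (33.3%) were in the table, where the median share over listed genes was 14.3%. All 4 had ratios of at least 4 in the authors' deposited table, as did 41.2% of all genes there. These neighbours were CGAS, a sensor of cytosolic DNA, at 4.85 against 0.03, CD109 at 6.39 against 0.74, KHDC1 at 2.17 against 0.06 and OOEP at 1.49 against 0.1. CGAS and OOEP overlap DDX43 on the other strand over 4055 and 386 bases, so part of their reads may be shared. The bases before the RefSeq start of DDX43 (GRCh38.p14, chr6:73394578-73394827, plus strand) are shown as those of the one member nearly absent from the wild-type library, with CCAAT and the GC box GGGCGG on either strand in capitals.
DDX43: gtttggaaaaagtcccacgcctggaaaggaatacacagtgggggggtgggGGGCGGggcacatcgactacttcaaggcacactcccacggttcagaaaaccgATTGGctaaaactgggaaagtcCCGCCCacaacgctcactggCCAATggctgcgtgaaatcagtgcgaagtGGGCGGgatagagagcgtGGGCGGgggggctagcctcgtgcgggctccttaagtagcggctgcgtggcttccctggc
It holds 16 CpG dinucleotides, 2 CCAAT boxes and 4 GC boxes.

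Upstream sequences of 250 bases were matched in RefSeq for 17 of 22 members, taking 1 start per gene; GTF2H2C_2, MED13, POLR2I, POLR2J and SF3B3 had no entry. All motifs were searched on both strands. CCAAT was present on either strand in 11 of 17 (64.7%), against 34.5% of 15843 protein-coding promoters and 30.2% of the 1598 listed genes with an entry. CCGGAAG was present in 5 of 17 (29.4%: GTF2H2, GTF2H2C, GTF3C6, SNRPG and TAF13), against 11.8% and 10.1%. GGGCGG was present in 7 of 17 (41.2%), against 56.0% and 67.0%, and TATAAA in 0 of 17, against 9.23% and 7.63%. The cyclic AMP response element TGACGTCA was present in 1 of 17 (5.88%), RBM42, against 2.32% and 2.07%. The POLR3K and SNRNP25 windows share most of their bases, as do those of GTF2H2 and GTF2H2C, so each pair counts the same matches more than once. The median window held 22 CpG dinucleotides, from 7 in DDX19B and DDX60L to 37 in POLR2L, against 17 over all promoters and 20 over listed genes. These matches describe the letters only.

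Many members encode small proteins. Of the 21 members with a coding length in GENCODE 29, 9 (42.9%) encode fewer than 150 residues, against 27 of 300 (9.0%) of the genes that match the rule and are not in the table. Over all listed genes with a coding length the share was 10.5% (211 of 2006). The median was 269 residues for the members and 462.5 for the rest of the machinery. In the splicing group the medians were 135.5 and 378 residues, and in the transcription group 213 and 387. Among POLR2 genes the 3 in the table, of 67, 117 and 125 residues, compare with a median of 191 for the 12 others. The 2 LSM genes in the table were not short for their family, with a median of 131 residues against 103 for the 11 others, of which 63.6% encode fewer than 150. The 2 Mediator members had a median of 2159.5 residues against 264.5 for the 28 others. Large proteins were present too, since MED13 and MED12L encode 2174 and 2145 residues and SF3B3 1217. Whether gene length has a part in which genes were listed was not tested.

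**Figure D3:**
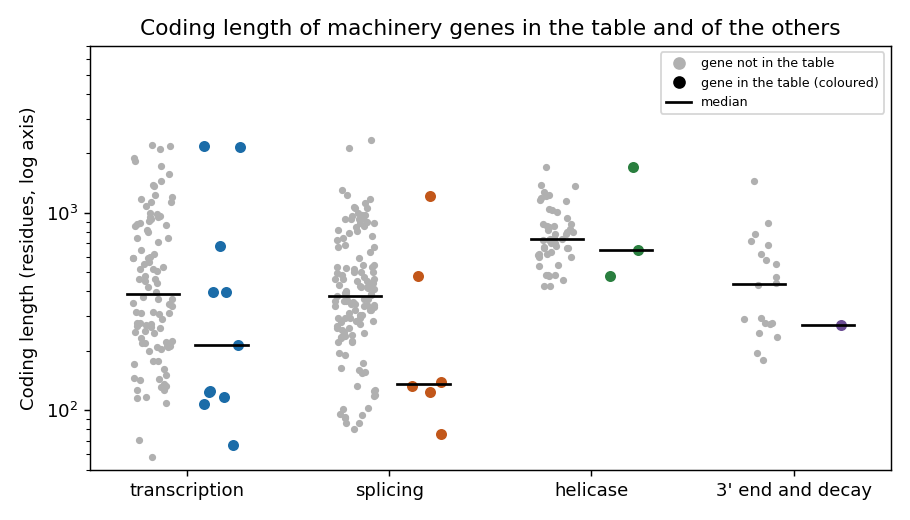
Coding length in residues (y axis, log axis) of genes matching the rule, by group, with grey points for genes not in the table, coloured points for those in it and a black line at each median. In transcription and splicing the genes in the table have medians of 213 and 135.5 residues, below the 387 and 378 of the others.

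Reads per unit of expression, which follow the length the authors' software assigned to a gene, were compared between the libraries. The choice of members by symbol did not use this measure, but it contains the expression values that put genes in the table. Divided by the median of the 1133 genes with 100 or more wild-type reads, the ratio lay between 0.87 and 1.11 for the 22 members. Of these members, 18 were within 5% of 1, against 72.9% of all genes and 84.1% of genes with at least 50 wild-type reads. All 6 splicing genes lay within 5%. The exceptions were DDX43 (0.87), CPSF4 (0.90), DDX60L (0.92) and GTF2H2C_2 (1.11), so for these the expression values and the counts give somewhat different folds. DDX43 has 1 wild-type read and a wild-type value rounded to 0.02.

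Several members lay near each other or near other listed genes. POLR3K and SNRNP25 overlap, DDX19B and SF3B3 are 188.5 kb apart on chromosome 16, RBM42 and POLR2I 476.0 kb apart on chromosome 19, and CPSF4 and TAF6 649.7 kb apart on chromosome 7, with POLR2J 2.35 Mb beyond TAF6. Within 1 Mb, the share of protein-coding neighbours that were in the table had a median of 19.6% over the 21 placed members, against 14.3% (interquartile range 6.25% to 25%) over 2003 listed genes. The highest shares were those of MED13 (7 of 12, 58.3%), TAF13 (19 of 39, 48.7%) and TAF6 (28 of 73, 38.4%). In the authors' deposited table the 7 listed neighbours of MED13 had a median ratio of 9.84, from 2.56 to 34.5, far above the 2.05 of MED13 itself. A ratio of at least 4 was reached by 6 of the 7, and by 41.2% of all genes there. The 7 neighbours included BCAS3 (99.52 against 10.11) and the transcription factor TBX2 (40.55 against 2.24). The listed neighbours of TAF13 had a median ratio of 2.87 in the authors' deposited table, near its own 3.04. Of these 19, 6 reached 4, beside the same 41.2% of all genes. GTF3C6, GTF2H2C and DDX60L had no listed neighbour among 14, 13 and 6. Neighbours overlap between adjacent members, and the copy number of these segments was not analysed here.

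**Figure D4:**
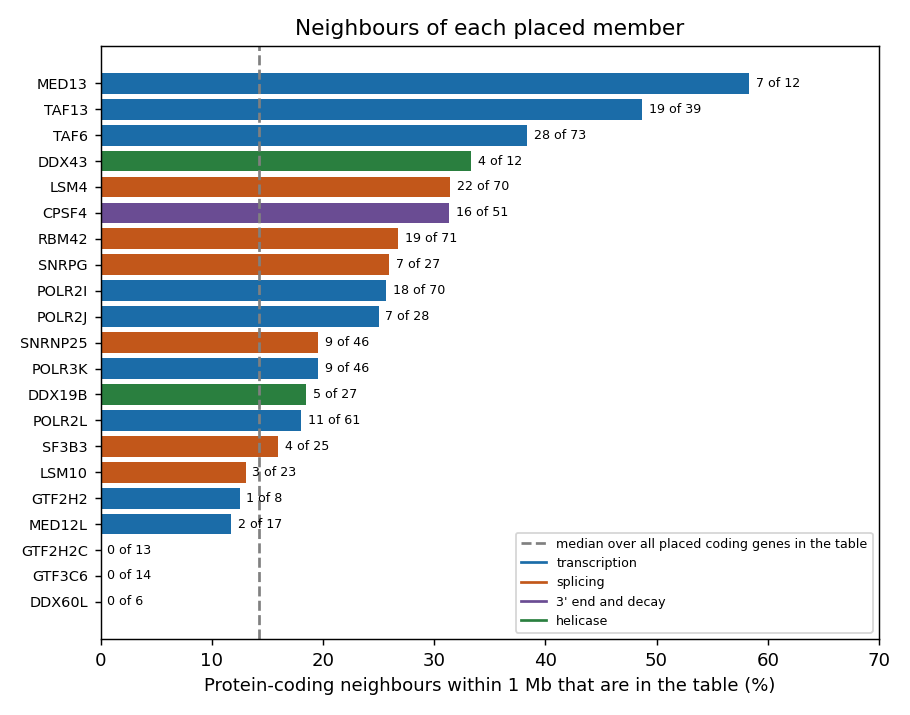
Share of protein-coding neighbours within 1 Mb that are in the table (x axis, percent), with the counts printed beside each bar, for the 21 members placed on the annotation. The dashed line is the median over listed genes, 14.3%, and MED13, TAF13 and TAF6 stand at 58.3%, 48.7% and 38.4%.

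Other genes of the same machinery, whose symbols the rule does not match, gave 12 of 213 (5.63%), beside the 6.53% of the rule itself and the 10.4% of all protein-coding genes. These were 3 of 55 transcription genes, 5 of 90 splicing genes and 4 of 68 genes of 3' end processing and decay, and all 12 were at least 2-fold higher on the log2(value + 1) scale, where the share over all listed genes was 80.6%. Of the 12, 4 had ratios of at least 4 in the authors' deposited table, against 41.2% of all genes there. BCAS2, a component of the spliceosome's PRP19 complex, was at 158.71 against 25.84 (fold 6.15, interval 5.61 to 6.74), and BUD31, another spliceosome protein, at 99.29 against 48.65 (fold 2.04, interval 1.87 to 2.22). LEO1, a subunit of the PAF1 elongation complex, was at 78.4 against 18.57 (fold 4.23, interval 3.88 to 4.61). MEPCE, which caps 7SK RNA, and SUPT16H, a histone chaperone of the elongating polymerase, had folds of 2.35 (2.18 to 2.52) and 2.15 (2.05 to 2.26).

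Among splicing regulators, KHDRBS3 was at 3.89 against 0.49, from 124 and 12 reads, MBNL3 at 4.3 against 1.45 and the kinase SRPK2 at 28.33 against 12.95. Decay, which had no exosome gene, was represented by factors that shorten or destabilise messages. ZFP36L2, which binds AU-rich elements, was at 60.53 against 11.98 (fold 5.05, interval 4.67 to 5.48), and its relative ZFP36 at 56 against 25.58 (fold 2.19, interval 2.01 to 2.39). CNOT8, a deadenylase of the CCR4-NOT complex, was at 84.05 against 33.69 (fold 2.53, interval 2.37 to 2.70), and CNOT4, a ubiquitin ligase tied to that complex, at 22.45 against 10.68 (fold 2.10, interval 1.91 to 2.31). BUD31 and MEPCE lie on chromosome 7 within 1 Mb of TAF6.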

How the data were processed

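RNA of 1 wild-type and 1 knockout MDA-MB-231 sample was sequenced. The labels name the gene TAMER and the design text TMEM25, taken here as the same gene. Per the labels' protocols RNA was extracted with TRIzol and libraries followed BGI protocols. CASAVA 1.4, HISAT2 2.0.4 and the build GRCh38.p12 are listed in the submitters' processing notes. The sources used here name no counting tool, annotation or strand setting. The authors deposited, per the file headers, an expression value (a signal scaled for length and depth with FPKM or TPM not named), an expected count per library, the ratio of knockout to wild type, and log2 ratios to the mean of both, which were not used. No column was left unmatched to a sample (0).

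Members and lists were chosen with earlier results of these data known. The log2 ratio used a pseudocount of 1, which understates low genes. Counts were rounded for exact binomial intervals (SciPy 1.17.1) and scaled by 1.155, the median ratio between libraries of reads per expression unit (1133 genes, 100 or more wild-type reads). Counts were not whole numbers for 12 of 22 members and 46.4% of all genes, and the intervals leave out how shared reads were divided. The table holds part of each library, so depth is unknown and no count model was fitted. Intervals cover counting error only; without molecular identifiers, reads need not be separate molecules. The interval was tested on simulated data that followed its own assumptions, with whole counts and a known scaling factor. That simulation left out divided reads and genes with as few wild-type reads as DDX43, so it does not check the interval on the real counts. Locations, coding lengths (APPRIS principal transcript) and copies come from GENCODE 29 (GRCh38) by Entrez number, with 21 of 22 members matched and alignments by Biopython 1.88; promoters are RefSeq, GRCh38.p14. Genes named were TAF13, all members of families with at most 5 members in the table, which covers every member, and up to 3 companion genes per role with the highest ratios; CNOT4, neighbours and copies were named after their values were seen.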

Additional observations from a re-analysis of the deposited data

How the results depend on the processing

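The count of 19 members at least 2-fold higher was 11 with a pseudocount of 5 and 1 under the 4-fold rule, both lower by construction. Centring on the median of all listed genes, a one-sided selection, moved the median of all genes from 1.33 to 0, left 1 member 2-fold higher and put the medians of the transcription, splicing, 3' end and helicase groups at -0.087, -0.13, -0.29 and -0.36. It also put 11 members called 2-fold higher below 0: SNRPG (-0.31), RBM42 (-0.22), SF3B3 (-0.30), MED13 (-0.32), TAF6 (-0.21), POLR3K (-0.21), POLR2I (-0.12), LSM10 (-0.047), GTF2H2 (-0.30), CPSF4 (-0.29) and GTF2H2C_2 (-0.058). With a pseudocount of 5 the medians were 1.004 for transcription, 1.02 for splicing and 0.80 for CPSF4. Scaled read counts, taken without a pseudocount, gave 1.46 for transcription and 1.42 for helicases, so both the measure and the pseudocount changed. In the transcription group the median deposited ratio was 2.76 and the median read-count fold 2.74, so counts alone moved little there. The helicase median was also 1.44 with a pseudocount of 0.1 and 1.99 without DDX60L, since it rests on 3 genes. Other alternatives kept these values within their counting error or within 1.5 times the count. The deposited ratio, GTF2H2 copies summed, splicing without LSM10 and helicases without DDX43 were chosen after seeing the data. No paired analysis was possible because each genotype has 1 library, and for the same reason no library could be left out. No result met the rules for a closer look, which need replicates or further data.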
